A study of Mus musculus with 2 samples.

Results

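The genes described here were 8 chemokine genes of stromal cells, namely Cxcl12, Ackr3, Cxcl14, Cxcl1, Cxcl5, Ccl2, Ccl7 and Cx3cl1. They were chosen by name, 8 of the 21849 genes in the count tables, and all 8 had counts in both libraries. Costal-cartilage-derived stem cells (CDSCs) came from the rib cartilage of CD45.1 or ZsGreen C57BL/6J mice in their first week of life, by collagenase digestion and sorting of CD45-CD51+ cells. CD45 marks blood cells and CD51 is an integrin of stromal cells. One group was primary CDSCs, profiled without culture, and the other was cultured CDSCs at passages 2 to 3, grown in medium with fetal bovine serum. Each group was 1 droplet library of single cells, and the study asked whether the cells differ between these states. The labels name bone marrow as the tissue, whereas the study's methods describe cartilage, and the 13 chondrocyte markers summed to 90230 CPM (counts scaled to a library total of 1000000) in primary cells and to 1082 CPM in cultured cells, with 13 of 13 lower in culture. Which mice gave which library was not stated, nor how many were pooled.

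Chemokines are small secreted proteins that direct the migration of cells through receptors on the target cell. They are classed by the spacing of their first cysteines. CXC chemokines have a residue between them, CC chemokines have none, and the CX3C chemokine has more. In bone marrow, Cxcl12 made by reticular stromal cells retains haematopoietic stem cells through the receptor Cxcr4, and Ackr3 is an atypical receptor that binds Cxcl12 and removes it from the surroundings. Cxcl1 and Cxcl5 attract neutrophils through Cxcr2, Ccl2 and Ccl7 attract monocytes through Ccr2, and Cx3cl1 is made as a membrane-anchored ligand of Cx3cr1.

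The coding sequence around these cysteines is printed below to show which class each ligand gene belongs to, 5′ to 3′ on the coding strand, with the cysteine codons in capitals. The stretches come from GENCODE vM21 transcripts on GRCm38. That of Cxcl12 lies at chr6:117171493-117171531 in exon 2 of 4, and that of Cxcl14 at chr13:56295900-56296116 on the minus strand across exons 1 and 2 of 4. Cxcl1 and Cxcl5 sit on the same chromosome, with their stretches at chr5:90891481-90891519 and chr5:90759712-90759750, each in exon 2 of 4. Ccl2 and Ccl7 are also neighbours, at chr11:82036491-82036526 and chr11:82046523-82046558, each in exon 2 of 3, and Cx3cl1 is at chr8:94778036-94778080 in exon 2 of 3.
Cxcl12: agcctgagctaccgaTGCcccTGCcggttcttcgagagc
Cxcl14: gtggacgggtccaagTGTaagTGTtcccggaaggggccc
Cxcl1: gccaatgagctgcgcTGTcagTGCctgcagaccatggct
Cxcl5: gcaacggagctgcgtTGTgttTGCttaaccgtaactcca
Ccl2: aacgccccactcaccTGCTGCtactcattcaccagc
Ccl7: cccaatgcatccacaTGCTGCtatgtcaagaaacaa
Cx3cl1: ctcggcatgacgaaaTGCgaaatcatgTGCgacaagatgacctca

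The cysteine codons were separated by 1 codon in the 4 CXC genes, by 0 codons in Ccl2 and Ccl7, and by 3 codons in Cx3cl1. Paralogues among these genes are alike in sequence. The coding sequences of Ccl2 and Ccl7 matched at 81.2% of 282 aligned bases, and those of Cxcl1 and Cxcl5 at 76.0% of 283. No run of 50 bases was shared between any annotated transcripts of either pair, nor between Cxcl1 and its close paralogue Cxcl2, so a read of that length without errors maps to 1 of them.

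The primary library held 11746 kept cells with 137148874 unique molecular identifiers (UMIs, each counting 1 captured transcript molecule) and a median of 10026.5 UMIs per cell. The cultured library held 5338 kept cells with 330129909 UMIs and a median of 56864.5. Barcodes under 500 genes or 1000 UMIs, or with over 10% of UMIs from mitochondrial genes, were left out, which removed 50.6% of the cultured barcodes but 1.26% of the primary ones. Neither group had a second library, so no test was possible and no difference below has a replicate check. The 95% intervals given are exact and account for counting error alone. Other differences ran with the groups. The ZsGreen transcript had 60957 counts in primary cells and 0 in cultured cells, and the Y-linked gene Uty had 11 and 20195, so strain or sex of the mice cannot be told apart from culture.

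Cxcl12 was scarce in primary cells and the most abundant of the 8 in cultured cells. Its level was 1.32 CPM in primary cells (181 counts) and 549 CPM in cultured cells (181149 counts), a 416-fold difference, or a log2 ratio of 8.70 (interval 8.49 to 8.92). In the cultured library it ranked 239 among the 18045 genes with a UMI, against 11461 of 17865 in the primary library. Levels are CPM of a library's UMIs and are not scaled by transcript length, since the 3′ chemistry tags each molecule at its end. Ackr3, the scavenging receptor of Cxcl12, went the same way to a lesser extent. It stood at 27.8 CPM in primary and 97.2 CPM in cultured cells, a log2 ratio of 1.80 (interval 1.76 to 1.85), which is short of 4-fold.

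Cxcl14, a CXC chemokine without a settled receptor, showed the opposite pattern. It was the most abundant of the 8 in primary cells, at 233 CPM, and stood at 49.7 CPM in cultured cells, a log2 ratio of −2.23 (interval −2.25 to −2.20). Cxcl14 thus led the 8 in primary cells and Cxcl12 in cultured cells. The ratio of Cxcl14 lay between −2.42 with TMM scaling and −1.93 when every cell was thinned to 5000 UMIs, and it was at least 4-fold in 9 of 12 alternative settings.

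The neutrophil chemokines Cxcl1 and Cxcl5 did not move together. Cxcl5 had 7 counts in 7 primary cells (0.0510 CPM) and 11948 counts in the cultured library (36.2 CPM), a log2 ratio of 9.47 whose interval of 8.43 to 10.78 reflects the 7 primary counts. Cxcl1 stood at 27.7 CPM in primary and 21.1 CPM in cultured cells, a log2 ratio of −0.39 (interval −0.45 to −0.33). That direction depends on how cells are weighed, because it became 0.06 when each cell counted equally and 0.08 after thinning to 5000 UMIs. No direction is therefore read for Cxcl1.

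Both monocyte chemokines were higher in the cultured library. Ccl2 had 0.839 CPM in primary and 26.4 CPM in cultured cells, a log2 ratio of 4.98 (interval 4.71 to 5.26). Ccl7 had 0.365 CPM and 8.01 CPM, a log2 ratio of 4.46 (interval 4.05 to 4.89). Their primary counts came from very few cells. Of the 115 Ccl2 counts, 49 were in 1 cell, and 21 of the 50 Ccl7 counts were in 1 cell. Such a count does not describe a level shared by primary cells, and the Poisson interval is too narrow for it.

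Cx3cl1 stood at 11.1 CPM in both libraries, with a log2 ratio of 0.00 (interval −0.08 to 0.09). It was the gene of the 8 whose interval spanned 0. Weighing each cell equally gave 0.39 and TMM scaling gave −0.19, so equal levels hold on the CPM scale of summed counts.

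**Figure D1:**
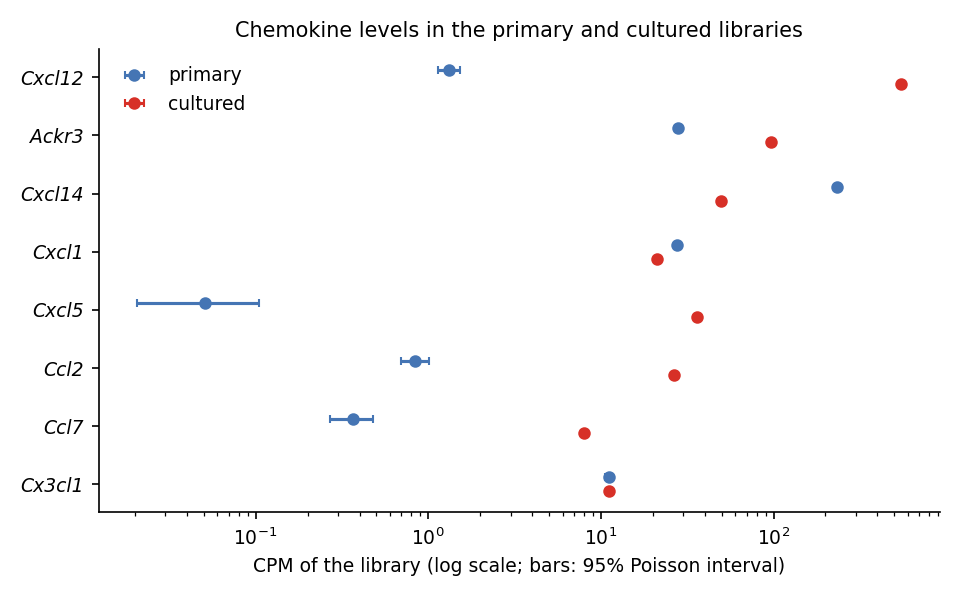
CPM of each gene in the primary library (blue) and the cultured library (red) on a log axis, with 95% Poisson intervals as bars, which are narrower than the points for most genes. Cxcl12 stood at 1.32 and 549 CPM in primary and cultured cells and Cxcl14 at 233 and 49.7 CPM, while Cx3cl1 stood at 11.1 CPM in both.

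In all, 5 of the 8 genes were higher in culture with an interval above 0 and Cxcl14 was lower, while Cxcl1 and Cx3cl1 are given no direction. By sign alone, 6 of the 8 were higher, as were 63.5% of all tested genes. At least 4-fold higher were 4 (Cxcl12, Cxcl5, Ccl2 and Ccl7), where 12.6% of the 12839 genes that reached 1 CPM in a library were, and at least 4-fold lower was 1 (Cxcl14), where 7.48% of all tested were. The median log2 ratio of the 8 was 3.13, against 0.36 over all tested genes. Cxcl5 had a higher ratio than 99.9% of these genes and Cxcl12 than 99.9%, Ccl2 than 98.0% and Ccl7 than 97.3%. TMM scaling lowers every ratio, with a shift of −0.20 on the log2 scale, and left the 4-fold count of the 8 at 4.

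**Figure D2:**
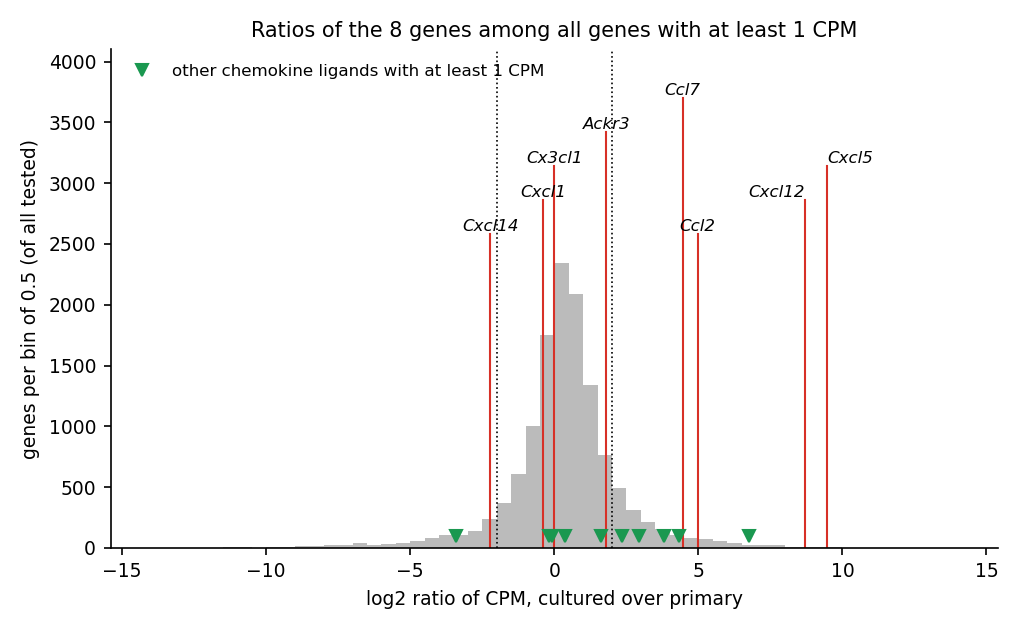
Histogram of the log2 ratio of CPM (cultured over primary) of the 12839 genes that reached 1 CPM in a library, with the 8 genes as red lines and the 10 other chemokine ligands at that level as green triangles; dotted lines mark 4-fold. Cxcl12 (8.70) and Cxcl5 (9.47) lie beyond nearly all genes and Cxcl14 (−2.23) lies past the lower line.

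The levels put the genes in a different order in each library. In primary cells the order was Cxcl14, then Ackr3 and Cxcl1, whose intervals overlapped, then Cx3cl1, Cxcl12, Ccl2, Ccl7 and Cxcl5. In cultured cells it was Cxcl12, Ackr3, Cxcl14, Cxcl5, Ccl2, Cxcl1, Cx3cl1 and Ccl7, with no overlap between neighbours.

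To compare how many cells carried each transcript, cells were thinned to 5000 UMIs each, which kept 10959 primary and 4543 cultured cells and left out 787 and 795 shallower ones. Cxcl12 was detected in 65.3% of cultured cells and in 0.584% of primary cells. Ackr3 was detected in 30.9% and 9.67%, and Cxcl14 in 17.0% and 50.02%. These 3 genes are the ones found widely in at least 1 library.

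The remaining ligands were found in small shares of cells. Cxcl5 had a UMI in 8.56% of cultured cells and in 1 of 10959 primary cells. Ccl2 was found in 8.21% against 0.173%, Ccl7 in 3.08% against 0.1004%, Cxcl1 in 7.64% against 5.82%, and Cx3cl1 in 5.50% against 4.43%. The share was thus higher in culture for 7 of the 8, all but Cxcl14, while it was higher for 62.3% of the 14765 genes with a share of at least 0.1% in either library. For Cxcl1 the share and the CPM pointed in opposite directions, and no order is read from it. Without thinning, Cxcl12 was seen in 89.8% of cultured and 1.12% of primary cells, and Cxcl14 in 52.5% and 63.5%.

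Free transcripts in the droplets can add UMIs to any cell. A cultured cluster of 9 haematopoietic-like cells, with a median of 35946 UMIs against 56864.5 over all cultured cells, had a Cxcl12 UMI in 3 of 9 after thinning (33.3%, interval 7.49 to 70.1), at 118 CPM against 549 CPM in the library. Shallow cultured barcodes carried Cxcl12 at the library's level, at 584 CPM in the 5336 barcodes left out for having under 1000 UMIs and 589 CPM in the 795 kept cells under 5000 UMIs. The part of free RNA in the shares of cells was not tested.

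**Figure D3:**
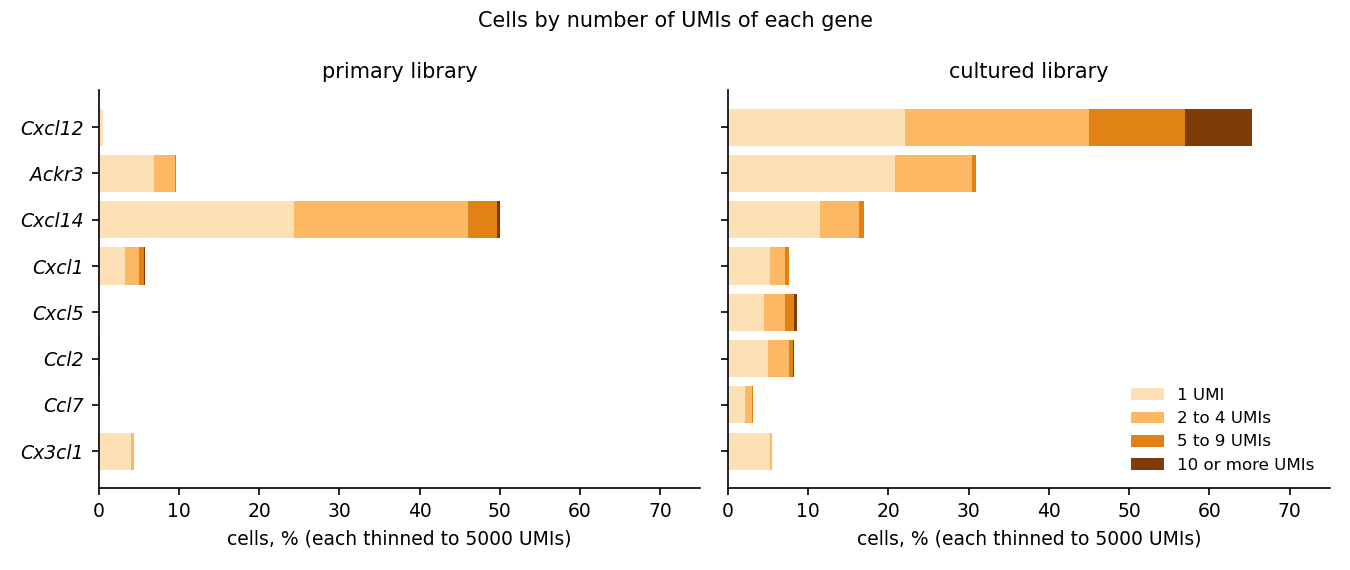
Share of cells in % with 1, 2 to 4, 5 to 9 or 10 or more UMIs of each gene after thinning every cell to 5000 UMIs, for 10959 primary cells (left) and 4543 cultured cells (right). Cxcl12 reached 10 or more UMIs in 8.36% of cultured cells, whereas most cells with Cx3cl1 had 1 UMI.

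How evenly a transcript was spread differed among the genes. Cells with the same underlying level give a variance near the mean. At 5000 UMIs the variance was 7.15 times the mean for Cxcl12 in cultured cells, 8.39 times for Cxcl5, 6.45 times for Cxcl1 and 3.62 times for Ccl2, but 1.08 times for Cx3cl1. The highest 10% of cultured cells held 48.9% of the Cxcl12 UMIs. The highest 1% held 43.6% of those of Cxcl5, 44.3% of those of Cxcl1, 37.1% of those of Ccl2 and 57.1% of those of Ccl7. Scarcity alone raises this share, which was 23.3% for Cx3cl1. Cxcl12 was therefore broad but uneven, and the UMIs of Cxcl5, Cxcl1, Ccl2 and Ccl7 lay in few cells. Cx3cl1 was too scarce at this depth for a variance ratio to show an even spread. In primary cells Cxcl1 was concentrated already, with a variance 5.19 times its mean, while Cxcl14 had 2.46 times.

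The cells of each library were then clustered without the chemokine and chemokine receptor genes, so that a cluster's level of a member did not help to define it. The regulator genes named below were not left out. These levels are descriptions within 1 library. The primary library gave 10 clusters, 8 of them named chondrocyte-like for abundant cartilage transcripts without a leading marker of another cell type. Primary Cxcl12 lay mostly in 1 of the remaining clusters. It had 289 cells and 1.91% of the library's UMIs, and held 51.4% of the Cxcl12 counts, at 35.5 CPM against at most 1.49 CPM in any other cluster. That cluster was led by the mast cell genes Tpsb2, Cma1 and Mcpt4 and also by the connective tissue genes Col1a1 and Thbs4, and was left unnamed. The other unnamed cluster, led by Aoc2 and Acta2, had the least Cxcl12, at 0.0843 CPM from 2 counts. That cluster too was rich in cartilage transcripts, with 11 chondrocyte markers at 1000 CPM or more. It went without the name because the smooth muscle marker Acta2 was among its leading genes.

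Clustered again, the mixed mast cell and connective tissue cluster split into 9 groups of 9 to 44 cells that all held Cxcl12. Levels ran from 17.8 CPM in the group led by Igfbp5 and Col1a1 to 145 CPM in 9 cells led by Rgs5, a pericyte gene. Groups this small give few counts. The group led by Tpsb2 had 30.7 CPM, within the range of the other groups. Its 26 cells were also enriched for 9 endothelial markers, so it does not describe mast cells alone. With 30 principal components in place of 10, a mast-like cluster of 191 cells and a mesenchymal fibroblast-like cluster of 263 cells separated. Among clusters of at least 100 cells, Cxcl12 was then highest in the fibroblast-like one, at 35.7 CPM, against at most 3.57 CPM in the others. Without the whole mixed cluster the log2 ratio of Cxcl12 between libraries was 9.71 in place of 8.70. Over the clusters named chondrocyte-like alone, which leave out the Aoc2 and Acta2 cluster too, it was 9.47.

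Cxcl14 and Ackr3 were highest in different primary clusters. Cxcl14 was highest, at 402 CPM, in the unnamed cluster led by Aoc2, Acta2 and Grem1, a BMP antagonist, and lowest, at 80.9 CPM, in the cluster led by Clu and Ppargc1a. Ackr3 was lowest in the former, at 13.7 CPM, and highest in the latter, at 55.3 CPM. The place of its lowest level changed with the clustering, to the cluster led by Fam43a and Trf with 11.5 CPM at a resolution of 1.0 and to the one led by Tpsb2 and Mcpt4 with 10.1 CPM at 30 principal components. Cx3cl1 followed Cxcl14, with 24.2 CPM in the Acta2 cluster and 4.59 CPM in the Clu cluster. Across 10959 primary cells at 5000 UMIs, the genes that correlated most with Cxcl14 were Cst3, Epyc and Serpinf1, each with a Pearson r of 0.31, and the lowest was the calcification inhibitor Mgp with −0.31.

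The primary counts of the monocyte chemokines were also unevenly placed. Ccl2 had 43.5% of its counts in the cluster led by Slc35f1 and Runx3, but those 50 counts lay in 2 of its 772 cells. The mixed mast cell and connective tissue cluster had 20 Ccl2 counts in 8 cells. Ccl7 had 44.0% of its counts in the mixed cluster, where 21 of the 22 counts lay in 1 cell of the group led by Tpsb2. These shares therefore describe single cells rather than clusters. Leaving that cluster out changed the log2 ratio of Ccl7 between libraries from 4.46 to 5.27 and that of Ccl2 from 4.98 to 5.23.

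**Figure D4:**
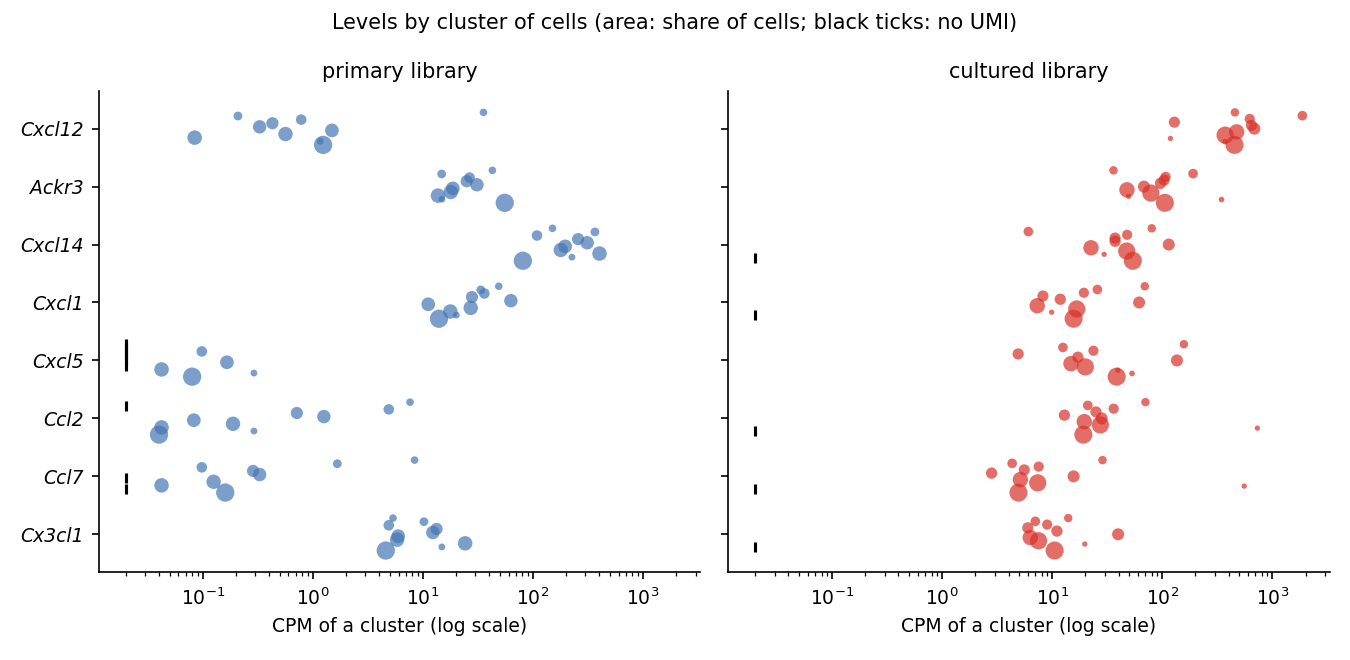
CPM of each gene in every cluster of the primary library (left, 10 clusters) and the cultured library (right, 11 clusters) on a log axis; point area is the cluster's share of cells and black ticks are clusters with no UMI of the gene. In the primary library 1 small cluster at 35.5 CPM stands apart for Cxcl12, and in the cultured library 275 cells at 1874 CPM do.

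In the cultured library each cluster held Cxcl12 UMIs, at levels that differed widely. A cluster of 275 cells led by the transcription factor genes Nr5a2 and Barx1 and by the Wnt modulator gene Sfrp2 had 1874 CPM and 24.9% of all Cxcl12 counts, with a UMI in 94.5% of its cells at 5000 UMIs. The cluster led by Angptl7 and Il1rl1 had the least among clusters of at least 100 cells with a median of 5000 UMIs or more, 129 CPM and 40.8% of cells. These are close to the 118 CPM and 33.3% of the 9 haematopoietic-like cells, so presence there is not read as expression. The highest and lowest levels differed 14.6-fold, and 6.52-fold with 30 principal components in place of 10, where the lowest of these clusters had 289 CPM.

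The cluster with the most Cxcl12 had the least Cxcl14. The Nr5a2 cluster had the most Ackr3, at 190 CPM, and the least Cxcl14, at 6.06 CPM. Cxcl14 was highest, at 114 CPM, in the cluster led by the collagenase gene Mmp13, which also had the most Cx3cl1, at 39.6 CPM. With 30 components, Cxcl14 was no longer highest in the cluster led by Mmp13, and Cx3cl1 spanned 2.87-fold across clusters in place of 6.62-fold.

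The inflammatory chemokines were uneven across cultured clusters as well. In the Mmp13 cluster Cxcl5 stood at 136 CPM, Cxcl1 at 61.5 CPM and Ccl7 at 15.6 CPM, against 36.2, 21.1 and 8.01 CPM over the whole cultured library, while Ccl2 stood at 28.1 CPM against 26.4 CPM. In the cluster of dividing cells led by Cenpf, Ccl2 and Ccl7 stood at 12.9 and 2.81 CPM. In the Angptl7 cluster Cxcl5 stood at 4.90 CPM and Cxcl1 at 8.22 CPM. Which cluster had the least of each of these 4 genes changed with the clustering.

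A small part of the cultured Ccl2 and Ccl7 counts came from cells of another type. The 9 haematopoietic-like cells, led by Dock2 and Ccl12 and enriched for all 10 haematopoietic markers, had 730 CPM of Ccl2 and 555 CPM of Ccl7, which made 3.39% and 8.51% of the library's counts. Without them the log2 ratio was 4.93 for Ccl2 and 4.33 for Ccl7, so the higher level in culture was nearly as large. The summed level of the 10 haematopoietic markers was 10.3 CPM in primary and 32.4 CPM in cultured cells, with 6 higher and 4 lower in culture. The highest in culture were Lyz2, Pf4 and Cd68, at 11.8, 7.96 and 5.99 CPM.

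Across cultured cells Ccl2 and Ccl7 varied together most, and Cxcl12 showed little correlation with the others. Correlations were taken over 4156 cells thinned to 20000 UMIs, all from 1 library, and are descriptions. Ccl2 and Ccl7 had a Pearson r of 0.49, Cxcl1 had 0.30 with both Ccl2 and Cxcl5, and Cxcl1 with Ccl7 had 0.24. Cxcl5 had 0.20 with Ccl2 and 0.16 with Ccl7. Cxcl14 reached like values, with 0.20 for Cxcl5 and 0.15 for Cxcl1, so it was not clearly apart from these 4. The pairs of Cxcl12 with each other gene lay between −0.07 and 0.10. At 5000 UMIs the r of Ccl2 with Ccl7 was 0.39, and Spearman's rho at 20000 UMIs was 0.34. Without the haematopoietic-like cells, of which 8 were deep enough, the Pearson r of this pair was 0.46 at 20000 UMIs.

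Detection in the same cells was also compared. At 5000 UMIs 67 cultured cells had both Ccl2 and Ccl7, 5.83 times the number given by the product of their shares, and 5.63 times without the 9 haematopoietic-like cells. The excess was 3.43 times for Cxcl1 with Cxcl5 and 2.95 times for Cxcl1 with Ccl2. For Cxcl14 it was 1.71 times with Cxcl5 and 1.85 times with Ccl7. For Cxcl12 with any other of the 8 it lay between 0.99 and 1.15. Cxcl12 was detected in 65.3% of these cells, and a gene found so widely cannot reach a high ratio. Its values are therefore not compared with those of the scarcer pairs. Of the cells with Ccl7, 47.9% also had Ccl2. In the primary library 1 cell had both Ccl2 and Ccl7 at this depth, which allows no such comparison.

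**Figure D5:**
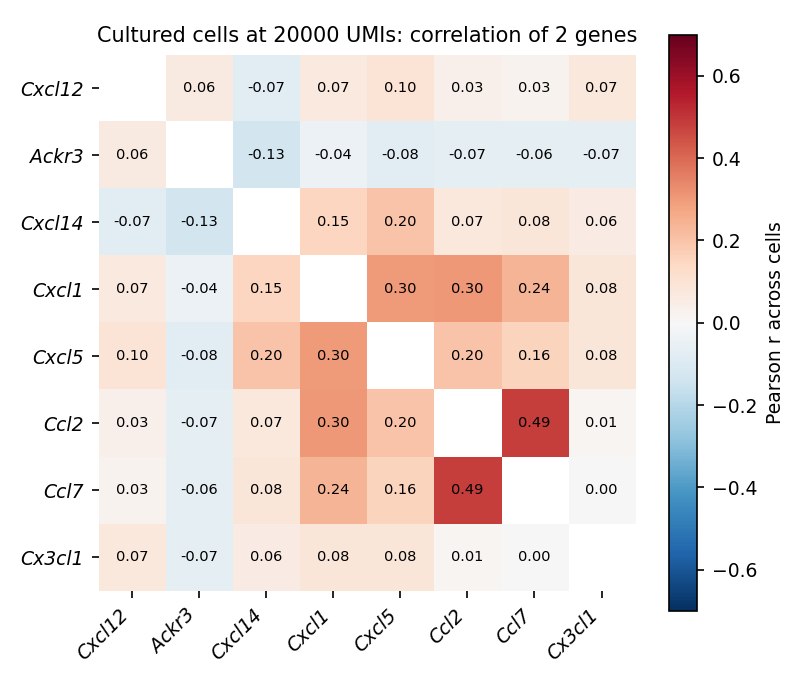
Pearson r of log-transformed counts for each pair of the 8 genes across 4156 cultured cells thinned to 20000 UMIs, from blue (negative) through white to red (positive). Ccl2 with Ccl7 is highest at 0.49, the pairs among Cxcl1, Cxcl5, Ccl2 and Ccl7 range from 0.16 to 0.49, Cxcl14 has 0.20 with Cxcl5 and 0.15 with Cxcl1, and Cxcl12 with the others from −0.07 to 0.10.

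The genes nearest to each of these patterns differed. Those most correlated with Cxcl12 were Barx1 with an r of 0.46, the prostacyclin synthase gene Ptgis with 0.42, Sfrp2 with 0.34, Palmd with 0.33 and Ccn5 with 0.32, and the lowest were Lgals3 with −0.40, Klk8 with −0.29 and Gsto1 with −0.27. For Ackr3 they were Timp3 with 0.27, Adgrg6 with 0.25 and Klf4 with 0.24. Those nearest to Ccl2, among genes seen in at least 10% of cells, were Cxcl1 with 0.30, the NF-κB inhibitor gene Nfkbia with 0.25, Cxcl5 with 0.20 and Sod2 with 0.18. Nfkbia was also among the 5 nearest to Cxcl1, with 0.21, together with Ccl2, Cxcl5, Tsc22d1 with 0.21 and the pentraxin gene Ptx3 with 0.20. It was not among the 5 nearest to Cxcl5, which were Cxcl1 with 0.30, Gas6 and Slc1a3 with 0.27, and Gpm6b and Gprin3 with 0.24. Cxcl14 came nearest to Cdc42ep3 with 0.23 and Fgf2 with 0.22, and Cx3cl1 to Stxbp6 with 0.26 and Gprin3 with 0.25.

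Nfkbia is a standard target of NF-κB, a transcription factor of inflammatory signalling, and so the promoter of Cxcl1 is shown beside that of Cxcl12, which had a Pearson r of 0.07 with it. The RefSeq table for GRCm38.p6 held windows for 5 of the 8 genes, each 250 bases before to 50 bases after the transcription start. The standard 10-base NF-κB motif was searched on both strands. It matched in 1 of the 5, Cxcl1, and in 4.51% of all 32851 windows. The matches in Cxcl1 overlap each other and lie between 71 and 61 bases before the start. Printed are the 120 bases before the start, on the gene's strand, with the matched bases in capitals, at chr5:90891125-90891244 and chr6:117168415-117168534.
Cxcl1: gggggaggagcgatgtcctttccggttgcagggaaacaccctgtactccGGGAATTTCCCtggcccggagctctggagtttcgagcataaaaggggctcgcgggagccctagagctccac
Cxcl12: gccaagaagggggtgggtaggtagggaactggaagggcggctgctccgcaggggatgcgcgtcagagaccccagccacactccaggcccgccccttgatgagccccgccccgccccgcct

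A match describes the letters of the window and does not show that a factor binds there. The windows of Ackr3, Cxcl14 and Cx3cl1 also held no match. None was searched for Cxcl5, Ccl2 and Ccl7.

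Cells rich in Cxcl12 were next described by markers of the CXCL12-abundant reticular (CAR) cell, the marrow stromal cell that takes its name from this gene. The 416 cultured cells with the most Cxcl12 at 20000 UMIs had 2741 CPM of it, against 334 CPM in the other 3740. Of the 9 other CAR markers, 2 were higher in the first group with intervals that did not overlap, 5 were lower and 2 overlapped. The share of all genes that separate in this split was not computed, so these counts are not read as particular to the markers. The higher ones were Foxc1, a transcription factor gene of CAR cells, at 141 against 72.1 CPM, and Pdgfrb, at 72.7 against 60.3 CPM. The lower ones were the stem cell factor gene Kitl, at 32.3 against 63.6 CPM, Pdgfra, at 58.7 against 93.7 CPM, Ebf3, at 20.6 against 25.2 CPM, Angpt1, at 19.5 against 23.8 CPM, and Vcam1, at 14.2 against 20.8 CPM. Lepr stood at 1.08 against 1.20 CPM, and Adipoq had 0 counts against 1 count, so 2 defining markers of marrow CAR cells were at or near 0 throughout. In 416 cells with 0 Cxcl12 counts, Ebf3 stood at 15.99 CPM and Angpt1 at 15.50 CPM, below the Cxcl12-rich cells. These 2 therefore did not fall steadily as Cxcl12 rose. Kitl, Pdgfra and Vcam1 stood above the Cxcl12-rich cells, at 86.1, 118 and 17.7 CPM. The intervals of Ebf3, Angpt1 and Vcam1 overlapped in this comparison. Between libraries, 7 of the 9 other CAR markers were higher in the cultured one, where 63.5% of all tested genes were. Foxc1 is among the 7 by sign alone, with a log2 ratio of 0.01 (interval −0.02 to 0.04). The lower ones were Lepr, at 2.30 and 0.991 CPM in primary and cultured cells, and Adipoq, at 0.0292 and 0.0182 CPM. The summed level of the 9 was 339 CPM in the cultured library against 132 CPM. With Cxcl12 the sums were 888 and 133 CPM.

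The other genes of the chemokine system gave a mixed picture. Of the 34 other ligand genes measured, 5 had no UMI in either library and 27 had a ratio, 13 higher and 14 lower in culture, with a median log2 ratio of −0.09. At 1 CPM or more in either library were 10, of which 7 were higher and 3 lower, where 63.5% of all tested genes were higher. At least 4-fold higher were 5 and at least 4-fold lower was 1, against 12.6% and 7.48% of all tested genes. The CCL ligands Ccl27a, at 2.96 and 15.1 CPM in primary and cultured cells, and Ccl9, at 0.292 and 5.82 CPM, were at least 4-fold higher. Pf4, Cxcl15 and Ccl5, described below, were the others. Cxcl10, an interferon-induced ligand, was lower, at 6.79 and 0.642 CPM, a log2 ratio of −3.40. Cxcl2, with the same receptor as Cxcl1, stood at 4.27 and 3.74 CPM, Cxcl16 at 8.56 and 8.05 CPM, and Ccl25 at 18.0 and 23.3 CPM.

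Some of these ligands came from very few cells. The 9 haematopoietic-like cells held 93.0% of the 2628 cultured counts of the platelet factor gene Pf4 and 83.2% of the 656 counts of Ccl6. Cxcl15, at 0.153 and 2.15 CPM, and Ccl5, at 0.226 and 1.73 CPM, were not concentrated there. With that cluster left out, 11 of 27 ligands were higher in culture.

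Receptors other than Ackr3 were scarce in both libraries. Of 23 others, 3 reached 1 CPM, namely Ackr4 at 2.05 and 2.17 CPM, Cx3cr1 at 3.41 and 1.87 CPM, and Ccr9 at 0.437 and 1.07 CPM. The signalling receptor of Cxcl12, Cxcr4, had 20 counts in primary and 9 in cultured cells. Cxcr2 had 18 counts and 1 count, and Ccr2 had 13 and 0.

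Of 19 genes that regulate or process chemokines, all at 1 CPM or more, 13 were higher and 6 lower in culture, and 3 were at least 4-fold higher. These shares are near those of all tested genes, 63.5% higher and 12.6% at least 4-fold higher. Those 3 were Il6, an inflammatory cytokine, at 0.678 and 24.5 CPM, Dpp4, a protease that cleaves Cxcl12, at 0.182 and 2.10 CPM, and the TGF-β receptor gene Tgfbr2, at 45.5 and 312 CPM. The interleukin-1 receptor gene Il1r1 stood at 24.1 and 82.7 CPM. NF-κB genes lay closer together between libraries, with Rela at 41.0 and 42.6 CPM and Nfkbia at 119 and 78.5 CPM. The transcription factor genes Foxc1, Ebf1 and Ebf3 are known from marrow stroma that makes Cxcl12. Foxc1 stood at 76.1 and 76.7 CPM, Ebf1 at 357 and 365 CPM and Ebf3 at 11.9 and 22.7 CPM, and their part in the level of Cxcl12 was not tested.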

How the data were processed

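Single-cell libraries were made of primary and cultured CDSCs. The labels name a Chromium 3′ v3.1 kit, and the study's methods name the MobiDrop platform beside it. Groups were taken from the labels. The authors deposited whole-number UMI counts for every gene and barcode, without normalisation, made with Cell Ranger 7.0.0 (per the submitters' processing notes). Those notes name mm10, GRCm38 and GRCm39, and the annotation release is not given in the sources used here. The study's own filter thresholds were not given.

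The members and gene lists were chosen with earlier results of these data known. The named genes were the 8 members, chemokine ligands, receptors and regulators with at least 1 CPM in either library, the 5 genes most correlated with a member (3 lowest for Cxcl12), genes leading a described cluster, and cell type markers. Scarcer receptors of the members' ligands were named in addition.

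Counts of kept barcodes were summed per library and scaled to CPM, with exact Poisson intervals. Log2 ratios are cultured over primary CPM, with exact conditional intervals. Counts under 3 were set to 3, and a gene with 3 or fewer counts in both libraries got no ratio. Shares have Clopper-Pearson intervals. No test was run and no p-value computed. The depth was 137148874 and 330129909 UMIs, so 3 counts are 0.0219 and 0.00909 CPM. PCR duplicates are collapsed by the UMIs, and counting intervals leave out variation between animals, cultures and library preparations. The ratio step was tested on simulated counts. Among the kept barcodes, 15 sequences occurred in both libraries.

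Clusters were made in each library with scanpy 1.11.5 and leidenalg 0.10.2 (2000 variable genes, 10 components, 20 neighbours, resolution 0.5), without the chemokine and chemokine receptor genes. Regulator genes stayed in. Clusters were named from a marker list with at least 3 markers. The chondrocyte-like name rests on abundant cartilage transcripts and was withheld where markers of another cell type led the cluster. Levels in some clusters are not reported here. Scrublet in scanpy called 0 primary and 1 cultured doublet by its own threshold and had not worked, so doublets stayed in and an alternative left out the highest scores. Correlations used log-transformed thinned counts. TMM factors came from edgeR 4.0.16. Coding stretches came from GENCODE vM21 transcripts, and promoter windows from RefSeq.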

Additional observations from a re-analysis of the deposited data

Results flagged for a closer look

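Barcodes that the filter left out carried the same chemokine transcripts. In the 5460 cultured barcodes left out, the level of Cxcl12 was 464.7 CPM, that of Ackr3 132.9 CPM, of Cxcl14 37.79 CPM, of Ccl2 33.34 CPM and of Cxcl5 25.88 CPM. Cxcl1 had 15.08 CPM there, Cx3cl1 9.686 CPM and Ccl7 5.24 CPM. In the 150 primary barcodes left out, Cxcl14 had 85.66 CPM and Ackr3 52.35 CPM, and the other 6 genes had at most 3 counts. Each value is above what a count of 0 allows. The order of Cxcl12, Ackr3 and Cxcl14 in the left-out cultured barcodes was that of the kept cells.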

How the results depend on the processing

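No paired analysis was possible because each group held 1 library, and the shared number 1 pairs nothing. Cxcl12, Ackr3, Cxcl5, Ccl2 and Ccl7 were higher and Cxcl14 was lower in the cultured library in all 12 alternative settings run, of which 3 were chosen after seeing the data, and Cxcl12, Cxcl5, Ccl2 and Ccl7 were at least 4-fold higher in each. The log2 ratio of Cxcl12 became 8.29 with each cell weighing the same, 9.47 over primary chondrocyte-like clusters only and 9.71 without the mast cell and connective tissue cluster, the last one added after seeing the data. The number of the 8 genes higher in culture ranged from 5 to 7, since Cx3cl1 and Cxcl1 lay near 0. Genes at least 4-fold apart numbered 2575 of 12839, and 1488 of 9115 with a minimum of 10 CPM, where fewer genes were tested. Of the other ligands, 13 of 27 were higher, and 7 of 10 with at least 1 CPM. The correlation of Ccl2 with Ccl7 was 0.486, against 0.386 at 5000 UMIs, 0.342 by Spearman and 0.457 without the haematopoietic-like cells, the last added after seeing the data. Depth limits the primary values of Cxcl5, Ccl7 and Ccl2 most, which rest on 7, 50 and 115 counts.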

Other observations

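The lists of other cell types gave these values, as summed CPM in the primary and cultured library. Endothelial markers stood at 27.8 and 29.2 CPM, with 7 of 9 lower in culture. Mast cell markers stood at 8.95 and 0.173 CPM, with Mcpt4 and Tpsb2 at 0 in cultured cells and Fcer1a at 0 in both libraries. Erythroid markers stood at 5.21 and 2.07 CPM and Schwann cell markers at 190 and 37.0 CPM. Skeletal muscle markers stood at 16.7 and 16.4 CPM. Smooth muscle and pericyte markers stood at 338 and 2560 CPM, of which Acta2 and Tagln made up nearly all in culture, at 1227 and 1282 CPM, and 4 of 8 were higher. Mesenchymal fibroblast markers stood at 3291 and 1722 CPM, with 6 of 10 higher.

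The 416 cultured cells with the most UMIs of Cxcl1, Cxcl5, Ccl2 and Ccl7 together, at 20000 UMIs, had 153 CPM of Nfkbia against 74.5 CPM in the other 3740 cells. The acute phase gene Saa3 stood at 229 against 53.8 CPM, the adhesion gene Vcam1 at 47.0 against 17.2 CPM and Il6 at 43.1 against 21.9 CPM. Their Cxcl12 level was 658 against 566 CPM. The proliferation gene Mki67 had 48.0 against 69.2 CPM in these cells. In the cells chosen by Cxcl12 it had 102 against 63.2 CPM. These are values in 1 library, and the genes named in this paragraph were chosen after their values were seen.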
